A study of Mus musculus with 44 samples.

Results

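Langerhans cell genes are here the 4 genes Cd207, Epcam, Mfge8 and Cldn1, taken by symbol from the CPM table (read counts scaled to the library total) of 14699 genes. All 4 were present in the table, and all 4 were among the 11963 genes that reached 1 CPM in at least 5 libraries and were tested. Their levels were not used to choose them, but the choice was made with results of these data known.

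Langerhans cells are the antigen-presenting cells of the epidermis. They sit between keratinocytes, to which they adhere through epithelial adhesion and junction proteins, depend on transforming growth factor-β and on IL-34 acting through its receptor CSF1R, and migrate to the skin-draining lymph node, where they join the MHCII-high migratory dendritic cells (DCs). Cd207 encodes langerin, the C-type lectin that forms Birbeck granules. Epcam encodes an epithelial adhesion molecule, Cldn1 a claudin of tight junctions, and Mfge8 a secreted bridge between apoptotic cells and the integrins of the phagocyte. None of these genes is exclusive to Langerhans cells: langerin, for example, is also made by a type of dermal conventional DC, and Mfge8 by follicular dendritic cells and macrophages.

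CD45+CD11c+MHCIIhigh cells were sorted from the draining inguinal lymph nodes of female mice, aged 8 to 12 weeks, 24 h after a subcutaneous injection at ZT3, ZT9, ZT15 or ZT21 (zeitgeber time, in hours after lights on), so that collection fell on the same ZT as injection. Control mice that received B16-F10-OVA melanoma cells, which carry the model antigen ovalbumin, make up the WT group (20 libraries, 5 at each timepoint). Clec9a-cre:Bmal1flox mice that received the same cells are labelled KO (12 libraries, 3 at each timepoint). Their Cre recombinase is driven by Clec9a, a gene of conventional DCs and their precursors, and the floxed gene is Arntl, which encodes the clock protein BMAL1. Control mice that were sham-injected make up the PBS group (12 libraries, 3 at each timepoint). Each library came from 1 mouse. The WT and KO mice came from 2 independent experiments, to which the labels assign no mouse.

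WT libraries held 20088012 to 28962671 reads on genes, libraries labelled KO 29406729 to 55799163 and PBS libraries 28003328 to 49590055, so that depth and the WT group cannot be told apart. The smallest number of reads on any of the 4 genes in any library was 189, for Cd207. The level of Arntl went against the label KO, with 19.9 ± 6.91 CPM (SD, n = 12) in those libraries against 14.8 ± 3.65 CPM (SD, n = 20) in WT libraries. The difference was 0.38 ± 0.12 on the log2 scale (SE, limma, adjusted p = 0.0153). PBS libraries, also of control mice, had 21.7 ± 6.11 CPM of Arntl (SD, n = 12). The WT minus PBS difference of Arntl was -0.52 ± 0.13 on the log2 scale (SE, limma, adjusted p = 0.00161). These values count reads over the whole gene, in which the loss of a part need not show, and the libraries are therefore named by their label. Replicate 2 of KO at ZT15 stood apart, with a summed level of macrophage genes of 993 CPM (next highest library, 522 CPM) and of melanoma genes of 22.1 CPM (next highest, 5.59 CPM). So did WT replicate 1 at ZT3, with a summed level of keratinocyte genes of 120 CPM (next highest, 43.4 CPM). The differences of the members between KO and WT are given with and without each.

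In the GRCm38.p6 annotation of RefSeq (the assembly also called mm10), Cd207 lies at chr6:83671207-83677857 on the minus strand, Epcam at chr17:87635979-87651127 on the plus strand, Mfge8 at chr7:79133768-79149060 on the minus strand and Cldn1 at chr16:26356645-26371839 on the minus strand. The read counts covered the exons of each gene, and no other gene of the GENCODE annotation overlapped any of the 4, so that no annotated antisense partner could share their unstranded reads. Because BMAL1 binds E-boxes and the members moved together in the comparison of genotypes, the promoters (250 bases before to 50 after the start of the gene, RefSeq, GRCm38.p6) were searched on both strands for 4 motifs: the E-box CACGTG, the RUNX motif TGTGGT, the GC box GGGCGG and the TATA motif TATAAA. All 4 members had a promoter in the table. The E-box was found in 1 of the 4, in Epcam, and in 7.15% of the 32851 promoters of this length. The RUNX motif was found in Mfge8 alone of the 4 (16.8% of promoters), the GC box in Epcam, Mfge8 and Cldn1 (35.7% of promoters), and the TATA motif in none of the 4 (13.6% of promoters). The window of Cd207 held none of the 4 motifs. The promoters of Epcam, with the E-box, and of Mfge8, with the largest number of matches, are given with the matches in capitals.
Epcam, chr17:87635729-87636028, plus strand: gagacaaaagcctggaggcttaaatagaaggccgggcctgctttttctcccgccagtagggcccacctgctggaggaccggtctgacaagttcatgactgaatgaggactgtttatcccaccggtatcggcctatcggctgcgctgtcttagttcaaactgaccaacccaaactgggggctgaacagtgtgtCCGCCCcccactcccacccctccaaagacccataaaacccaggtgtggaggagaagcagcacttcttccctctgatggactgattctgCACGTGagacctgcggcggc
Mfge8, chr7:79149011-79149310, minus strand: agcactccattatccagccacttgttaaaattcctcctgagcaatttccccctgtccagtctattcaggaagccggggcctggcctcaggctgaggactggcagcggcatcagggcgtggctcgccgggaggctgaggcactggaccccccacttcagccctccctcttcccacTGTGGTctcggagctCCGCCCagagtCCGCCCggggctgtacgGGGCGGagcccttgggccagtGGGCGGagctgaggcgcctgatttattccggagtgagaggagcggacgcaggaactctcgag
In Epcam the E-box began at base 281 of the window, after the start site, and the GC box, on the opposite strand, at base 193. In Mfge8 the RUNX motif began at base 175 and the GC boxes at bases 190, 201, 218 and 239. A match is a stretch of letters, and binding was not measured.

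Per length, Mfge8 was the most abundant of the 4. Per kilobase of exon (union of the GENCODE exons), the mean level in WT libraries was 253 CPM for Mfge8, 21.2 CPM for Epcam, 13.0 CPM for Cd207 and 9.15 CPM for Cldn1. The order was the same in the libraries labelled KO (370 CPM, 34.0 CPM, 20.7 CPM and 13.7 CPM per kilobase) and in the PBS libraries (277 CPM, 24.6 CPM, 12.9 CPM and 10.3 CPM per kilobase).

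The level of langerin RNA in single mice is given first. Cd207 in the WT libraries was 20.95, 8.22, 8.40, 13.9 and 20.97 at ZT3, 17.5, 24.6, 17.5, 19.4 and 22.7 at ZT9, 18.9, 19.8, 21.4, 21.2 and 22.9 at ZT15, and 36.0, 21.4, 26.8, 17.6 and 14.3 at ZT21. In the libraries labelled KO it was 15.2, 29.2 and 23.9 at ZT3, 29.1, 39.4 and 37.9 at ZT9, 28.0, 27.3 and 43.5 at ZT15, and 33.2, 30.6 and 40.2 at ZT21. In the PBS libraries it was 24.2, 12.9 and 24.9 at ZT3, 17.8, 19.3 and 13.8 at ZT9, 23.7, 20.5 and 29.4 at ZT15, and 10.97, 19.4 and 18.2 at ZT21. The libraries labelled KO lay above every WT library at ZT9 and ZT15 and overlapped with them at ZT3 and ZT21, where the highest WT library exceeded KO libraries. WT and PBS libraries overlapped at every timepoint, and the WT mice at ZT3 included the lowest values of Cd207 in all groups. Over the 4 timepoints Cd207 was 19.7 ± 6.10 CPM (SD, n = 20) in WT libraries, 31.5 ± 7.92 CPM (SD, n = 12) in libraries labelled KO and 19.6 ± 5.40 CPM (SD, n = 12) in PBS libraries.

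Epcam, the adhesion molecule by which Langerhans cells are commonly gated among migratory DCs, had a smaller coefficient of variation over the WT libraries (16.0%) than Cd207 (30.9%). Epcam in the WT libraries was 53.3, 47.2, 50.2, 61.0 and 44.02 at ZT3, 38.5, 62.3, 46.5, 46.7 and 55.7 at ZT9, 42.8, 47.4, 38.5, 43.1 and 34.6 at ZT15, and 45.0, 48.8, 44.8, 45.1 and 35.0 at ZT21. In the libraries labelled KO it was 52.3, 77.1 and 75.0 at ZT3, 69.1, 85.6 and 74.1 at ZT9, 55.9, 63.1 and 79.3 at ZT15, and 97.4, 85.1 and 80.3 at ZT21. In the PBS libraries it was 58.3, 46.9 and 53.7 at ZT3, 50.1, 57.0 and 61.2 at ZT9, 59.6, 59.0 and 60.2 at ZT15, and 50.5, 43.7 and 47.2 at ZT21. The libraries labelled KO were above all WT libraries at ZT9, ZT15 and ZT21, and 2 of 3 were at ZT3. The 5 WT libraries at ZT15 were below all 3 PBS libraries of that timepoint (14.7% of the genes tested were lower in WT than in PBS libraries without overlap at ZT15), and WT and PBS libraries overlapped at the other timepoints. Over the 4 timepoints Epcam was 46.5 ± 7.44 CPM (SD, n = 20) in WT libraries, 74.5 ± 12.9 CPM (SD, n = 12) in libraries labelled KO and 53.9 ± 6.08 CPM (SD, n = 12) in PBS libraries.

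Mfge8, whose product links phosphatidylserine on dying cells to phagocytes, was the member whose KO and WT libraries did not overlap at any timepoint. Mfge8 in the WT libraries was 1341, 1375, 1061, 1386 and 1259 at ZT3, 966, 1197, 1207, 1039 and 1279 at ZT9, 1049, 948, 1378, 1135 and 986 at ZT15, and 1446, 1325, 1212, 1154 and 1032 at ZT21. In the libraries labelled KO it was 1454, 1977 and 2006 at ZT3, 1687, 1843 and 1577 at ZT9, 1406, 1387 and 1808 at ZT15, and 2103, 1750.1 and 1839 at ZT21. In the PBS libraries it was 1583, 1227 and 1222 at ZT3, 1133, 1185 and 1316 at ZT9, 1216, 1324 and 1481 at ZT15, and 1205, 1486 and 1231 at ZT21. At each of the 4 timepoints the 3 libraries labelled KO were above the 5 WT libraries of that timepoint, which was the case for 1.44% of the genes tested. The lowest library labelled KO was replicate 2 at ZT15, the library with the high level of macrophage genes. Over the 4 timepoints Mfge8 was 1189 ± 157 CPM (SD, n = 20) in WT libraries, 1736 ± 239 CPM (SD, n = 12) in libraries labelled KO and 1301 ± 142 CPM (SD, n = 12) in PBS libraries.

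Cldn1, which encodes a claudin that seals tight junctions, was also read in every library. Cldn1 in the WT libraries was 39.0, 42.1, 31.4, 51.6 and 45.1 at ZT3, 26.8, 56.0, 41.3, 41.5 and 37.8 at ZT9, 45.4, 39.0, 59.4, 52.6 and 47.9 at ZT15, and 57.8, 42.4, 52.5, 44.8 and 31.9 at ZT21. In the libraries labelled KO it was 47.6, 68.3 and 70.7 at ZT3, 57.5, 72.8 and 58.0 at ZT9, 64.6, 63.4 and 65.2 at ZT15, and 80.0, 63.7 and 81.6 at ZT21. In the PBS libraries it was 47.7, 44.8 and 43.6 at ZT3, 58.7, 67.5 and 54.7 at ZT9, 52.2, 41.5 and 60.5 at ZT15, and 39.2, 42.9 and 45.2 at ZT21. The libraries labelled KO were above all WT libraries at ZT9, ZT15 and ZT21, and 2 of 3 were at ZT3, where replicate 1 was the lowest of the 12 for Cldn1 as well as for Cd207 and Epcam. The PBS mean was 60.3 CPM at ZT9, 45.4 CPM at ZT3 and 42.4 CPM at ZT21, and the difference between ZT9 and ZT21 did not pass the test (limma, adjusted p = 0.824). Over the 4 timepoints Cldn1 was 44.3 ± 8.90 CPM (SD, n = 20) in WT libraries, 66.1 ± 9.56 CPM (SD, n = 12) in libraries labelled KO and 49.9 ± 8.81 CPM (SD, n = 12) in PBS libraries.

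**Figure D1:**
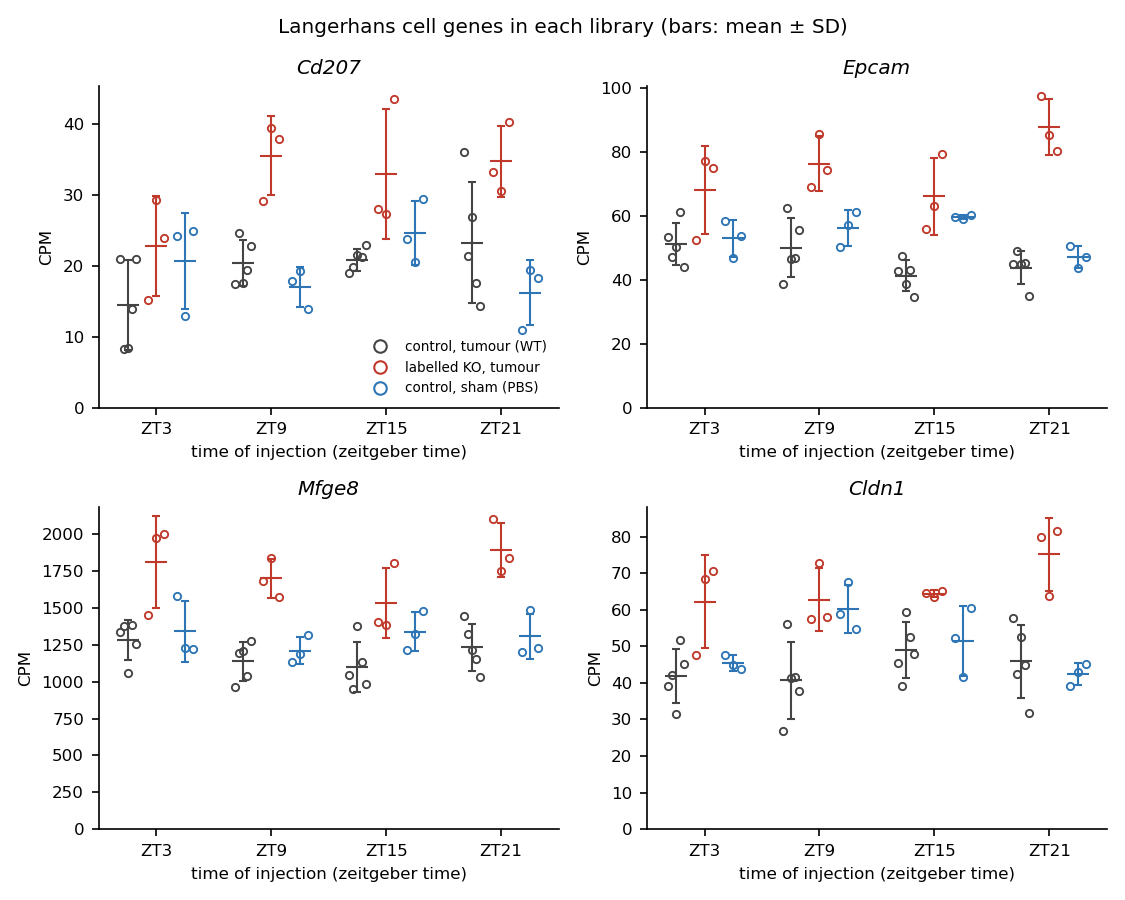
CPM (linear axis from 0) of Cd207, Epcam, Mfge8 and Cldn1 in each library by time of injection; circles are single mice (black WT, red KO, blue PBS) and bars the mean ± SD of the 5 WT, 3 KO or 3 PBS libraries. The libraries labelled KO have the highest mean of the 3 groups for each of the 4 genes at each of the 4 timepoints, 16 of 16 in all.

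Whether the genotype label went with a different level of these genes was tested by the mean of the 4 differences at matched timepoints, on log2(CPM + 0.5), with limma and Benjamini–Hochberg adjustment over the 11963 genes. All 4 genes were higher in the libraries labelled KO than in WT libraries. The difference was 0.68 ± 0.14 (log2, SE, 1.61-fold, 95% interval 0.39 to 0.98, adjusted p = 0.000532) for Cd207 and 0.67 ± 0.080 (1.59-fold, 0.51 to 0.83, adjusted p = 3.29e-07) for Epcam. It was 0.55 ± 0.072 (1.46-fold, 0.40 to 0.69, adjusted p = 1.62e-06) for Mfge8 and 0.59 ± 0.10 (1.502-fold, 0.38 to 0.79, adjusted p = 6.1e-05) for Cldn1. The 4 intervals overlapped, and whether the members differed from each other in the size of the change was not tested. Of all genes tested, 23.5% were higher and 10.2% lower in the libraries labelled KO, and the median difference was 0.098. With median-of-ratios scaling of the libraries that median was 0.011, the genes called were split into 1745 higher and 1754 lower in place of 2813 and 1218, and the members were still higher, by 0.59 (Cd207), 0.58 (Epcam), 0.45 (Mfge8) and 0.49 (Cldn1). In sorted bulk samples, more cells of a type and more RNA per cell cannot be told apart.

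The direction was the same at each timepoint. The mean of the libraries labelled KO exceeded that of the WT libraries for every member at every timepoint, from 1.32-fold (Cldn1 at ZT15) to 2.00-fold (Epcam at ZT21). Groups did not overlap for 1 member (Mfge8) at ZT3, for all 4 at ZT9 and ZT15, and for 3 (Epcam, Mfge8 and Cldn1) at ZT21. Over all genes tested, 8.83%, 9.21%, 18.9% and 13.6% were higher without overlap at ZT3, ZT9, ZT15 and ZT21. Without KO replicate 2 at ZT15 the differences were 0.71 (Cd207), 0.68 (Epcam), 0.56 (Mfge8) and 0.59 (Cldn1).

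Because the WT libraries were the shallowest, the libraries labelled KO were also compared with the PBS libraries, which had similar depth but differed from them in treatment as well as in genotype. This comparison was added after the data were seen and shares the KO libraries with the first. All 4 members were again higher (limma): Cd207 by 0.67 ± 0.14 (log2, SE, adjusted p = 0.00881), Epcam by 0.45 ± 0.081 (adjusted p = 0.00325), Mfge8 by 0.41 ± 0.080 (adjusted p = 0.00514) and Cldn1 by 0.41 ± 0.084 (adjusted p = 0.00737). Here 5.43% of the genes tested were higher. By timepoint, the ratio of KO to PBS means ran from 1.10 (Cd207) to 1.37 (Cldn1) at ZT3, from 1.04 (Cldn1) to 2.09 (Cd207) at ZT9, from 1.11 (Epcam) to 1.34 (Cd207) at ZT15 and from 1.45 (Mfge8) to 2.14 (Cd207) at ZT21. The KO libraries were above all PBS libraries for 0 members at ZT3, for 3 (Cd207, Epcam and Mfge8) at ZT9, for 1 (Cldn1) at ZT15 and for 4 at ZT21, compared with 5.62%, 5.73%, 19.2% and 12.7% of the genes tested. All 4 passed the test in each of 24 fits that omitted 1 library, with a largest adjusted p of 0.0191 (limma).

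**Figure D2:**
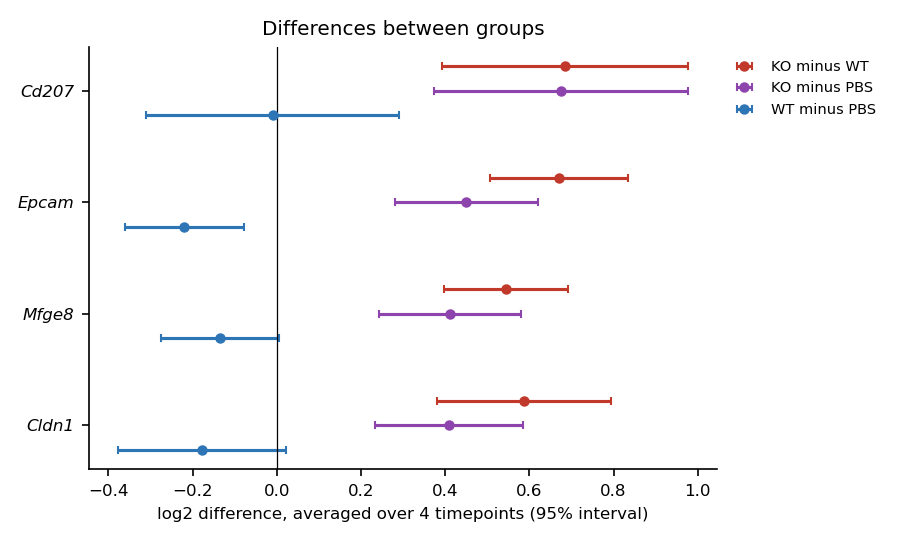
Log2 differences of each member, averaged over the 4 timepoints (horizontal axis), with 95% intervals of the limma fits, for KO minus WT, KO minus PBS and WT minus PBS. The intervals of both comparisons with KO lie above 0 for all 4 genes, and those of WT minus PBS include 0 except for Epcam.

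A longer list of 11 genes linked to Langerhans cells, the 4 members included, was compared in the same fit. In it 6 genes were higher and none lower in the libraries labelled KO, with a median difference of 0.55 (all genes tested, 0.098, with 23.5% higher). The 4 members were among the 6, and the median was the value of Mfge8, so that the list is not a separate test of them. Beside the members these included Csf1r, the receptor of IL-34 (1.25 ± 0.16 on the log2 scale, SE, 2.37-fold, limma, adjusted p = 7.28e-07). The median level of Csf1r was 19.5 CPM in WT libraries, 51.9 CPM in libraries labelled KO and 73.1 CPM in PBS libraries. Its KO median thus lay below the PBS median, whereas the 4 members were higher in KO than in both other groups. The 5 genes Cdh1 (E-cadherin), Cldn7, Ly75 (DEC-205), Runx3 and Ahr did not pass the test, with differences from -0.30 for Ly75 to 0.40 for Cdh1. All 11 genes were tested.

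Cldn1 was also read beside 15 other tested genes of epithelial adhesion and tight junctions. Of these 16 genes tested, 4 were higher and none lower in the libraries labelled KO, with a median of 0.25, a share close to the 23.5% of all genes tested that were higher, so that the count says nothing particular of junction genes. The genes with the smallest p included Cldn1 and Ocln (occludin, 0.69 ± 0.16, adjusted p = 0.0019). Mfge8 was read beside 15 other genes of apoptotic cell uptake. Of these 16, 6 were higher and none lower, with a median of 0.46, and after Mfge8 the smallest p belonged to Timd4, a phosphatidylserine receptor of macrophages (0.87 ± 0.12, adjusted p = 2.34e-06), and to Elmo1, an adaptor of engulfment (0.51 ± 0.10, adjusted p = 0.00034). Of 16 genes of the TGF-β and IL-34 pathways, 3 were higher and 2 lower, with a median of 0.02. These shares were near the 23.5% higher and 10.2% lower among all genes tested, so that the counts say nothing particular of these pathways. Next to Csf1r the genes called included Smad4, the common SMAD, lower by -1.46 ± 0.20 (adjusted p = 3.42e-06), and Tgfb1, the ligand, higher by 0.40 ± 0.091 (adjusted p = 0.00129). For Csf1r, Timd4 and Smad4 the WT minus PBS difference, given below, was larger and of the opposite sign. Their level in KO libraries thus lay between those of WT and PBS libraries, unlike that of the members.

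Genes of other cell types were read in the same comparison, against the 23.5% higher and 10.2% lower among all genes tested. Of 11 macrophage genes tested, 9 were higher and none lower in the libraries labelled KO (median, 0.76). Their summed level was 98.1 to 279 CPM in WT libraries, 165 to 993 CPM in libraries labelled KO and 316 to 522 CPM in PBS libraries. The upper end in KO was that of replicate 2 at ZT15, without which the sum in KO was 165 to 358 CPM, with 8 of 11 genes higher (median, 0.61). Of 12 genes each, 6 of conventional DC type 2 (cDC2) were higher (median, 0.51), 4 of conventional DC type 1 (cDC1) were higher and 1 lower (0.29), and 2 of migratory DCs were lower (-0.12). The summed level of the cDC2 list was 297 to 482 CPM in WT and 354 to 926 CPM in KO libraries (354 to 607 CPM without replicate 2 at ZT15, with 5 of 12 genes higher), that of the cDC1 list 804 to 1079 CPM and 822 to 1125 CPM, and that of the migratory DC list 21940.3 to 29448 CPM and 21759 to 27509 CPM. Of 16 T cell genes 5 were higher and none lower, with a summed level of 359 to 813 CPM in WT and 556 to 1268 CPM in KO libraries. Of 9 B cell genes tested 3 were higher and none lower, with a summed level of 44.5 to 73.3 CPM and 56.1 to 173 CPM, and the B cell factor Pax5 was at 0 in 23 of 44 libraries. Of 7 genes tested of follicular dendritic and stromal cells, a known source of Mfge8, 1 was higher (Cxcl13) and 2 were lower (Clu and Ccl19), and the summed level was 826 to 1659 CPM in WT and 940 to 1205 CPM in KO libraries. Clu alone, at 749 to 1532 CPM in WT and 839.8 to 1064 CPM in KO libraries, made up most of this sum, and the stromal genes Pdpn, Pdgfra, Pdgfrb, Col3a1 and Lum were at 0 in 34, 30, 25, 20 and 39 of 44 libraries. Keratinocyte genes were low, with a summed median of 19.97 CPM in WT and 21.1 CPM in KO libraries and the basal keratins Krt5 and Krt14 at 0 in 30 and 19 of 44 libraries. Without WT replicate 1 at ZT3, the library with the highest sum, the differences of the members were 0.72 (Cd207), 0.67 (Epcam), 0.55 (Mfge8) and 0.58 (Cldn1). Of the 6 keratinocyte genes tested, 2 were higher and 1 lower, and of 2 melanoma genes none passed the test. The counts of higher genes in the cDC1, T cell, B cell and keratinocyte lists were close to the share of all genes tested. Without KO replicate 2 at ZT15 the T cell list had 6 higher genes and the migratory DC list 3 lower ones. Lists of 2 other cell types were entered as covariates, T cells and migratory DCs (the latter after the data were seen). With the mean of the T cell list as a covariate the differences were 0.70 (Cd207), 0.73 (Epcam), 0.58 (Mfge8) and 0.66 (Cldn1), and with that of the migratory DC list 0.82, 0.69, 0.56 and 0.53, and all 4 genes passed the test in both. The part of macrophages, cDC1 and cDC2 in the level of the members was not tested.

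Mfge8 and Arntl lie on the same chromosome, 34.0 Mb apart. Within 5 Mb of Mfge8, 13 of 53 other genes tested (24.5%) were higher in the libraries labelled KO. On the whole chromosome 196 of 938 (20.9%) were, and both shares were near the 23.5% of all genes tested. The median difference in this region was 0.087.

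Tumour and sham were compared between WT and PBS libraries, which share the WT libraries with the comparison of genotypes. Epcam was lower in WT than in PBS libraries, by -0.22 ± 0.069 on the log2 scale (SE, 0.859-fold, 95% interval -0.36 to -0.078, limma, adjusted p = 0.0131). In the libraries labelled KO, also of tumour-bearing mice, Epcam was higher than in PBS libraries (0.45, limma, adjusted p = 0.00325). The WT libraries were the shallowest, and depth and the WT group cannot be told apart. Of all genes tested, 13.3% were higher and 24.6% lower in WT than in PBS libraries, a split of 1589 and 2940 that became 2079 and 2429 with median-of-ratios scaling, under which Epcam still passed the test (-0.17, adjusted p = 0.0396). The other 3 members did not pass the test. Cd207 differed by -0.01 ± 0.15 (95% interval -0.31 to 0.29, adjusted p = 0.967), Mfge8 by -0.13 ± 0.068 (-0.27 to 0.006, adjusted p = 0.126) and Cldn1 by -0.18 ± 0.097 (-0.38 to 0.021, adjusted p = 0.154). The intervals leave room for a change of about the size of that of Epcam in each of them. The call of Epcam was lost with the mean of the T cell list as a covariate (-0.30, adjusted p = 0.155), with which Cldn1 passed the test (-0.56, adjusted p = 0.0251), and with the mean of the migratory DC list (-0.15, adjusted p = 0.444). A block on the replicate numbers of the labels also ended the call of Epcam.

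The lists beside which the members were read are given for the same comparison, in which 13.3% of all genes tested were higher and 24.6% lower. Of the 11 genes of the longer Langerhans cell list, 1 was higher and 5 were lower in WT than in PBS libraries. The genes with the smallest p included Csf1r (-1.74 ± 0.15, limma, adjusted p = 4.81e-10) and Runx3, a transcription factor that Langerhans cells need (-0.51 ± 0.092, adjusted p = 6.92e-05). Of 12 genes each, 10 cDC1 genes were lower and 1 higher (median, -1.15), 9 cDC2 genes were lower and none higher (-1.44), and 7 migratory DC genes were higher and none lower, with a median of 0.24. Of 11 macrophage genes 9 (median, -1.29), of 16 T cell genes 13 (-0.50) and of 9 B cell genes 5 (-0.46) were lower. Of 16 genes of apoptotic cell uptake, 2 were higher and 7 lower, Timd4 by -1.93 ± 0.12 (adjusted p = 2.73e-12). Of 16 junction genes, 1 was higher and 2 were lower, and of 16 TGF-β and IL-34 genes 2 were higher, Smad4 among them (2.07 ± 0.13, adjusted p = 1.69e-12), and 5 lower. Follicular dendritic and stromal genes held 1 lower gene of 7, keratinocyte genes 1 higher and 1 lower of 6, and melanoma genes 1 lower of 2.

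**Figure D3:**
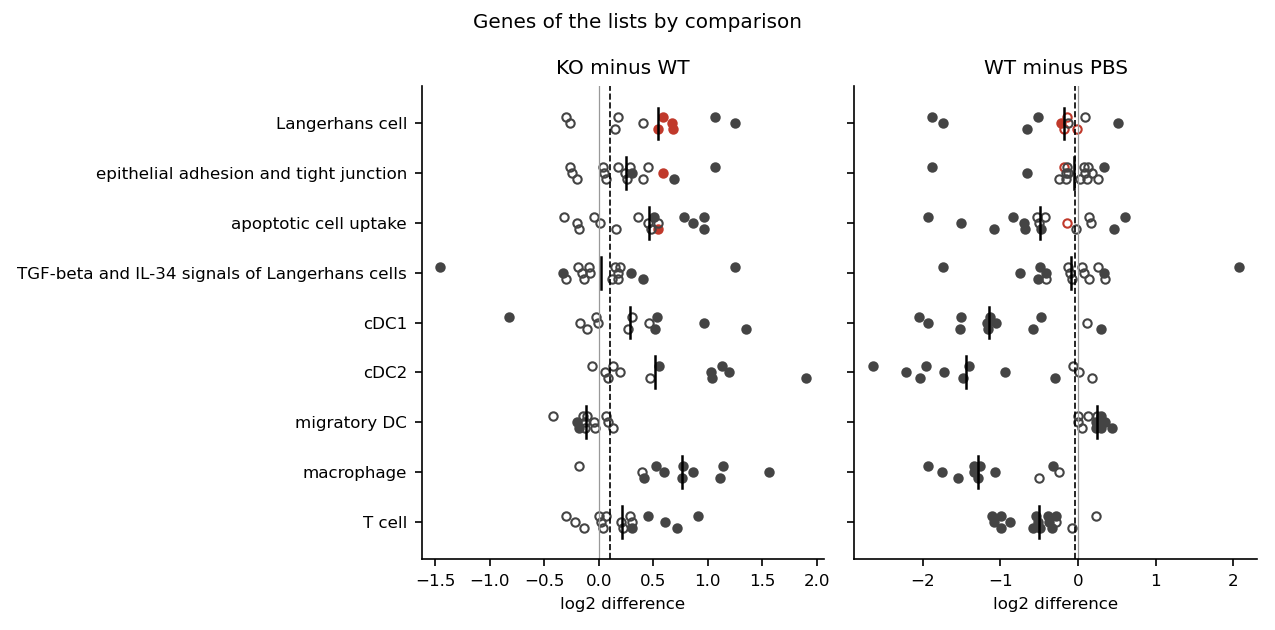
Log2 differences (horizontal axis) of the genes of 9 lists for KO minus WT and WT minus PBS. Each circle is a gene, filled where adjusted p was under 0.05, red for the 4 members; black bars are list medians and the dashed line the median of all genes tested. The red circles lie between 0.55 and 0.68 in KO minus WT, and within 0.22 of 0 in WT minus PBS.

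Changes over the day were sought with a 24-h cosinor in each group. None of the 4 members was rhythmic in any group at an adjusted p under 0.05 (limma), in which 0.0251% of the genes tested passed in WT libraries, 0 in libraries labelled KO and 0 in PBS libraries. At an unadjusted p under 0.05, 1101, 1258 and 883 genes passed. Of the members, these included Epcam in WT libraries (log2 amplitude 0.18, peak at 5.02 h, limma unadjusted p = 0.0465, adjusted p = 0.536) and Cldn1 in PBS libraries (log2 amplitude 0.26, peak at 10.2 h, unadjusted p = 0.0201, adjusted p = 0.663). The amplitude of Cd207, 0.32 in WT libraries, was larger but so was its spread, and p was 0.0939 before and 0.594 after adjustment (limma).

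ZT9 and ZT21, the injection times that the study compares most, did not separate the members either. None reached a change of 2-fold with an adjusted p under 0.05, a rule met by 0.0669% of genes in WT libraries, 0.00836% in libraries labelled KO and 0 in PBS libraries. At an unadjusted p under 0.05 the rule without fold was met by 1371, 1308 and 637 genes. In WT libraries the ZT9 minus ZT21 difference was -0.13 for Cd207 (95% interval, -0.67 to 0.41), 0.18 for Epcam (-0.10 to 0.46), -0.12 for Mfge8 (-0.37 to 0.14) and -0.18 for Cldn1 (-0.58 to 0.21). Changes of 2-fold thus lay outside the intervals of all 4 genes. The largest difference of a member was that of Cldn1 in PBS libraries, 0.50 ± 0.16 (SE, limma, unadjusted p = 0.0105, adjusted p = 0.824).

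The difference between genotypes was not shown to depend on the time of day. In the test of interaction, 0 of 4 members passed (0.0502% of genes tested; 2184 genes at an unadjusted p under 0.05), and the smallest p was that of Epcam (limma, unadjusted p = 0.088, adjusted p = 0.335). For tumour against sham 0 of 4 passed (0% of genes tested; 1423 genes at an unadjusted p under 0.05), with unadjusted p from 0.0832 (Cd207) to 0.606 (Mfge8) and adjusted p (limma) from 0.486 to 0.86. The WT minus PBS difference farthest from 0 among the 4 members and 4 timepoints was that of Cldn1 at ZT9, -0.60 (differences of mean log2(CPM + 0.5)). That of Cd207 ran from -0.55 at ZT3 to 0.47 at ZT21, and that of Epcam was farthest from 0 at ZT15 (-0.53).

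When the 12 conditions were ordered by mean level, the 4 KO conditions took the first 4 places for Epcam, Mfge8 and Cldn1. For Cd207 they took places 1 to 3, and KO at ZT3 came sixth, between WT at ZT21 and WT at ZT15. The ends of the order were KO at ZT9 (35.5 CPM) and WT at ZT3 (14.5 CPM) for Cd207, KO at ZT21 (87.6 CPM) and WT at ZT15 (41.3 CPM) for Epcam, KO at ZT21 (1897 CPM) and WT at ZT15 (1099 CPM) for Mfge8, and KO at ZT21 (75.1 CPM) and WT at ZT9 (40.7 CPM) for Cldn1. Neighbours in the order overlapped in every case, and the gap between neighbours exceeded the larger of their SDs in 1 of 11 steps for Cd207, Epcam and Cldn1 each and in 0 of 11 for Mfge8.

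Correlations between mice of 1 group were computed after the mean of each timepoint was subtracted. Of 66 correlations between members and with the means of the cDC1, cDC2, migratory DC and T cell lists, 1 passed adjustment: Mfge8 and Cldn1 in the 20 WT libraries (Pearson's r = 0.74, permutation p = 0.00064, adjusted p = 0.0422; Spearman's rho = 0.64, permutation p = 0.00625, adjusted p = 0.153; r = 0.69 without the 2 libraries farthest from the median of Mfge8). With median-of-ratios scaling it was lost (r = 0.61, adjusted p = 0.232). In the 12 libraries labelled KO the 6 pairs of members had r from 0.70 (Epcam and Cldn1) to 0.92 (Epcam and Mfge8, exact permutation p = 0.0123, adjusted p = 0.178; rho = 0.81, p = 0.0324, adjusted p = 0.306). Without the 2 libraries farthest from the median of the first gene of a pair, r ran from 0.56 (Cd207 and Mfge8) to 0.85 (Epcam and Mfge8). In the 12 PBS libraries the same pairs had r from -0.01 (Epcam and Cldn1) to 0.57 (Cd207 and Cldn1). Whether r differed between groups was not tested. All pairs share the depth and makeup of their library.

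**Figure D4:**
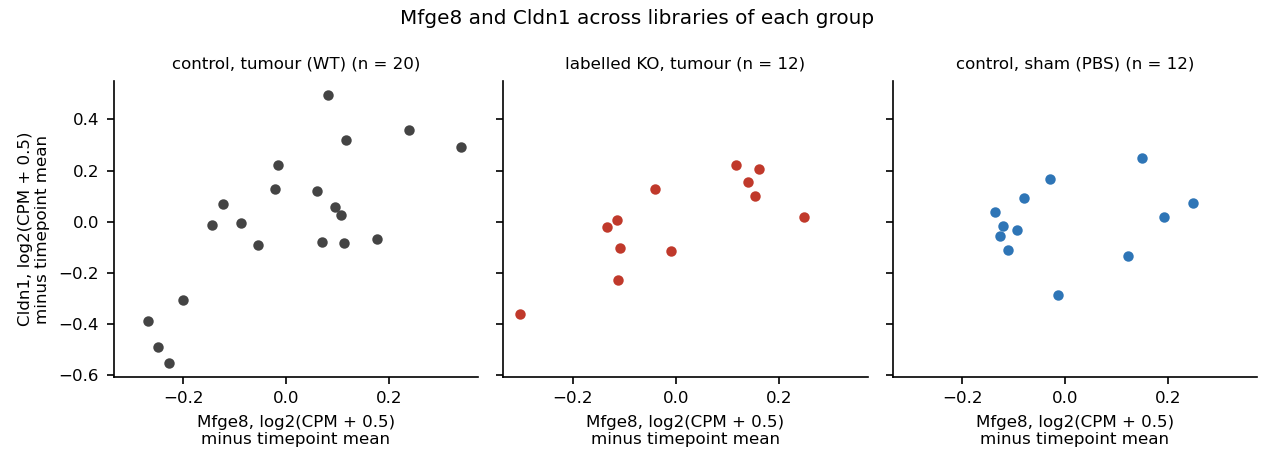
Mfge8 (horizontal axis) against Cldn1 (vertical axis), both as log2(CPM + 0.5) minus the mean of the library's timepoint, in the 20 WT, 12 KO and 12 PBS libraries. Pearson's r is 0.74 in the WT, 0.77 in the KO and 0.24 in the PBS panel, and the difference between panels was not tested.

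The genes most like each member across the 44 libraries, after subtraction of the mean of each of the 12 conditions, are given as a description, by Pearson's r. For Cd207 they were Hsd3b7 (0.71), Pkmyt1 (0.69), Tra2a (0.66), Ube2q1 (0.65) and Pim2 (0.62). For Epcam they were H2-M2 (0.71), Npy1r (0.66), Sccpdh (0.66), Wtip (0.63) and Ss18l1 (0.63), and for Cldn1 Sccpdh (0.73), Cdc23 (0.70), Tmx3 (0.69), Gmps (0.69) and Rfk (0.68), so that Sccpdh was named for both. For Mfge8 they were Cdh2, which encodes N-cadherin (0.81), Abhd4 (0.81), Hp1bp3 (0.78), Cul2 (0.75) and Wars (0.74). The share of all genes tested with r over 0.5 was 0.61% for Cd207, 0.577% for Epcam, 5.58% for Mfge8 and 3.64% for Cldn1, and no member was among the 5 genes nearest to another.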

How the data were processed

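All 44 libraries were used, and each was assigned to its group by its title. The members and all gene lists were chosen with earlier results of these data known. The authors made cDNA with the SMART-Seq v4 kit and libraries with the Nextera XT kit, which does not mark strand. Single-end reads were aligned by STAR (mm10) and assigned to genes by HTSeq (version 0.9.1, per the submitters' processing notes), and the authors deposited linear CPM scaled by library size. Columns of other samples were 0. Values were whole multiples (within 0.01 read) of the value of 1 read for 87.5% to 89.3% of the values above 0 of a library, which gave the depth. Because the remaining values were fractions of a read, no count model was used. At a tolerance of 0.05 read, 44 of 44 values of Cd207, Mfge8 and Cldn1 and 43 of 44 of Epcam were whole.

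Tests used limma (version 3.58.1, R 4.3.3) on log2(CPM + 0.5) over genes that reached 1 CPM in 5 or more libraries, with adjustment by Benjamini–Hochberg over all of them. Fold changes are on this scale. Cosinors and ZT9 against ZT21 were fitted within each group, and averaged differences and interactions on the 32 libraries of both groups compared (24 for KO against PBS). No pair of libraries held identical values, and r between libraries of 1 condition was 0.924 to 0.984. Permutation tests of correlations were two-sided, within timepoints, with 100000 resamples for WT libraries and 1296 exact arrangements for libraries labelled KO and PBS. The fits were tested on simulated data. Alternatives were pseudocounts of 1 and 0.1, scaling by median of ratios, no filter or a mean of at least 10 CPM, an intensity trend, array weights, a replicate block, the mean of the T cell list as a covariate, an F test over timepoints and leaving out each library. A migratory DC covariate, PBS as the reference and list counts without KO replicate 2 at ZT15 or WT replicate 1 at ZT3 were added after seeing the data. Genes named were the members, Arntl, the 3 genes of each list with the smallest p in a comparison and the 5 genes nearest to each member. Cdh1, Cldn7, Ly75 and Ahr, Krt5, Krt14 and Pax5, and Pdpn, Pdgfra, Pdgfrb, Col3a1 and Lum were named after their values were seen. One gene that this rule names is not reported here. Software was Python 3.11.15 with numpy 2.4.6, pandas 2.3.3, scipy 1.17.1 and matplotlib 3.10.9.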

Additional observations from a re-analysis of the deposited data

How the results depend on the processing

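Members higher in the libraries labelled KO than in WT libraries numbered 4 under each of the 10 alternatives that kept WT as the reference and with each of the 32 libraries left out in turn (4 to 4), and over these alternatives their differences were between 0.45 and 0.82 on the log2 scale. The comparison of KO with PBS, on 24 libraries, called 4 members and 1164 genes. Members past the test of WT against PBS numbered 1, and 0 with the replicate block (Epcam -0.20, adjusted p = 0.0601 by limma) and with the migratory DC list as a covariate, and 1 to 1 with each library left out. With the T cell covariate 1 passed, Cldn1 in place of Epcam. The adjusted p of Epcam ran from 0.00987 to 0.444 over the alternatives. Cd207 in that comparison changed sign without passing the test, up to 0.038 with median-of-ratios scaling. The replicate numbers of the labels did not pair the mice: same-numbered libraries had a median r of -0.0106, 0.0113 and -0.015 in WT, KO and PBS, over 0.1 in 3 of 30, 0 of 18 and 0 of 18 pairs, and the block changed no other call of a member. No member was called rhythmic, different between ZT9 and ZT21 or in an interaction under any alternative or with any library left out. Correlations past adjustment numbered 1, and 0 with median-of-ratios scaling. The causes were not tested. Counts over all genes depended on the setting: rhythmic genes in WT libraries went from 3 to between 1 (replicate block) and 632 (F test over timepoints), and from 1 (without WT replicate 1 at ZT3, for example) to 43 (without WT replicate 3 at ZT3) with a library left out. Genes differing between ZT9 and ZT21 in WT libraries went from 8 to between 1 and 47, and from 1 to 15 with a library left out. In KO libraries they went from 1 to between 0 and 44. WT against PBS went from 4529 to 1093 with the T cell covariate and 1671 with the migratory DC covariate, and genotype by time from 6 to 1071 with array weights and 311 without WT replicate 3 at ZT3. Rhythmic genes in KO libraries went from 0 to 5 with the trend, and treatment by time from 0 to 5 without a filter and 38 without WT replicate 2 at ZT15. The number of mice, 3 per condition in KO and PBS, limits every comparison by timepoint.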
